A study of Sus scrofa with 8 samples.

Results

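The mitochondrial respiratory chain was read in testis RNA of 8 Large White boars by 25 probes for 18 genes, out of 43603 probes on a porcine Agilent array. A probe was taken if its pig RefSeq symbol, found through the probe's transcript accession, begins with NDUF, SDHA to SDHD, UQCR, ATP5 or COX4 to COX8, or is CYCS or CYC1. Names in the study's own list of differing probes were searched in the same way and added 0 probes. RefSeq holds 82 pig genes that the rule takes by the start of their symbol, which is not a count of subunits. Most of these 82, cytochrome c included, had no named probe and were not analysed here. Levels are given as log2 of the spot signal, quantile-normalized over the arrays, and a difference of 1 is a 2-fold difference.

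The respiratory chain sits in the inner membrane of mitochondria. Complex I takes electrons from NADH and complex II takes them from succinate, complex III passes them to cytochrome c, and complex IV hands them to oxygen. The proton gradient that results drives ATP synthase. Most subunits are encoded in the nucleus, as are all 18 genes here, while a small set is encoded in mitochondrial DNA. In the testis, mitochondria carry out the first step of steroid synthesis in Leydig cells, and those of spermatids become the sheath of the sperm midpiece. Some subunits of complex IV exist as a form common to many tissues and a form typical of heart and skeletal muscle.

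All 8 boars belonged to the F0 generation of a feeding experiment and were fed from month 1 to month 10 of age. On the supplemented diet were 4 boars, m_9597, m_9599, m_9499 and m_9527, which ate a standard feed with added folate, betaine, choline, methionine and vitamins B6 and B12. On the control diet were m_9598, m_9600, m_9502 and m_9528, with the standard feed alone. The study took the 8 boars from 3 litters and allotted them to the diets at random within each litter. The boars m_9597, m_9598, m_9599 and m_9600 were full brothers, 2 on each diet, and shared slide 1, while the other 4 boars shared slide 2. Those 4 came from the remaining litters, and the litter of each was not given. Litter and slide can therefore not be told apart, and neither can diet and place on the slide, since the supplemented diet took places 1 and 3 and the control diet places 2 and 4. Each boar gave 1 array. The tissue is whole testis, where fewer cells of a type and less RNA per cell cannot be told apart. Transcripts of testis cells were bright on every array, with log2 signals of 18.42 to 18.80 for PRM1, the protamine of spermatids, and 18.50 to 18.74 for INSL3, the Leydig cell hormone.

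The raw median signal of an array lay between 108 and 192.5, which was 4.91 to 7.40 times the local background, and 0 spots were saturated. Boars m_9527 and m_9528 stood apart from the rest. The highest or the lowest value of a probe fell on 1 of these 2 boars in 74.0% of all present probes and in 20 of the 24 present members. The median size of the difference between these 2 boars was 0.56 over all present probes, against 0.15 to 0.49 for the 27 other pairs of boars. Boar m_9527 had the lowest raw median signal of the 8 arrays, 108, against 174 for boar m_9528. These signals were not far from those of other arrays, since m_9502 had 116 and m_9598 had 192.5. Diet differences that moved most without this pair are given with and without it.

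Every respiratory chain gene but the muscle form COX8H was read well above background in all 8 boars. A probe was called present if the scanner rated it well above background in 2 or more boars sharing a diet. By this measure 24 of the 25 members and 84.8% of all probes were present, and 23 members were well above background on all 8 arrays, against 71.1% of all probes. The present members had a median log2 signal of 13.96, with 7.93 for all present probes. Signal also depends on the probe, as the 3 COX6B probes show with means over the boars of 10.61 (A_72_P260567), 11.38 (A_72_P303339) and 14.52 (A_72_P211467), so the genes are not ranked by it.

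Of the tissue forms of complex IV, COX7A2 (A_72_P203272), the form found in most tissues, lay 2465 to 5155 times above local background. COX7A1 (A_72_P303109), the muscle form, lay 96.6 to 227 times above it and was well above background in all 8 boars. The COX8H probes, also for a muscle form, lay only 1.61 to 2.65 times (A_72_P223572) and 1.39 to 1.79 times (A_72_P393483) above local background. The former was present in 1 of 4 boars on the supplemented and 4 of 4 on the control diet, and the latter in 0 of 4 and 1 of 4. These COX8H values are too close to background for a comparison of the diets.

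No respiratory chain probe passed a test of the diets. With limma, 0 of the 24 present members had an adjusted P-value under 0.05 and 0 had an unadjusted P-value under 0.05, where 0% and 1.86% of all present probes did. The ordinary equal-variance test also gave 0 at both levels. In 0 members did the boars of one diet all lie above those of the other, as in 1.13% of all present probes (the smallest two-sided exact permutation p of 4 against 4 boars is 0.0286), and 0 members differed 1.5-fold or more, against 5.16% of all present probes. The median diet difference was 0.04 for the members and -0.0028 for all present probes, with 16 members higher and 8 lower on the supplemented diet by their means, where 49.5% of all present probes were higher. The 95% interval of the diet difference lay within 2-fold for 23 of the 24 members, as it did for 81.4% of all present probes, and within 1.5-fold for 16 members, against 43.3%. SDHD was the exception to the former, with an interval from -1.07 to 0.39. Without the control boar m_9502, 5 members were under an unadjusted P of 0.05 with limma (ATP5I, COX6B, SDHD, NDUFB6 and NDUFC1) and 0 were under an adjusted one, while the share of all present probes rose to 16.6%.

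**Figure D1:**
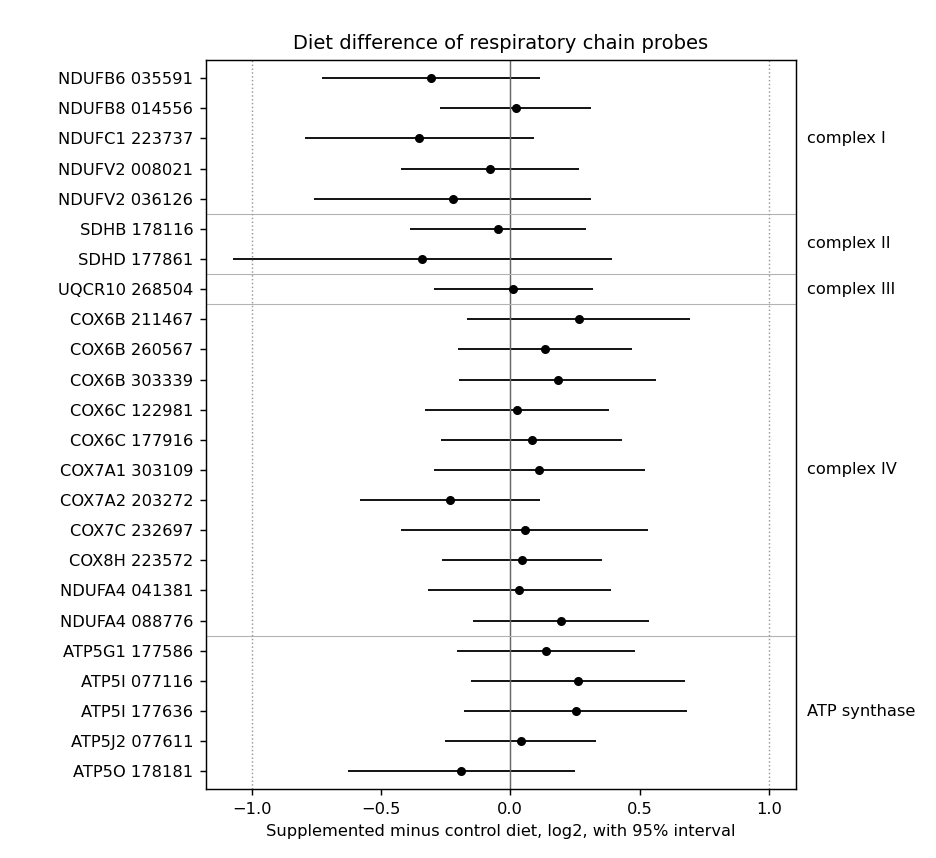
Diet difference of the 24 present respiratory chain probes (supplemented minus control, log2 scale on the horizontal axis, 4 boars per diet), labelled by gene and the last 6 digits of the probe and grouped by complex. Points are limma estimates, bars are 95% intervals and dotted lines mark 2-fold; every interval crosses 0, and only that of SDHD crosses a dotted line.

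In complex I, NDUFC1 (A_72_P223737), an accessory subunit of the membrane arm, had the smallest P-value of all members. Its log2 signal was 12.29 in m_9597, 12.35 in m_9599, 12.50 in m_9499 and 12.16 in m_9527 on the supplemented diet, and 13.09 in m_9598, 12.82 in m_9600, 12.21 in m_9502 and 12.59 in m_9528 on the control diet. The 3 highest values were from control boars, and m_9502 lay among the supplemented ones, so the diets overlapped. The difference was -0.35 (standard error 0.20, limma, adjusted p = 0.840), which is 1.28-fold. Within the brothers it was -0.63 and within the other boars -0.07, and it was -0.33 without m_9527 and m_9528. In the brothers alone the limma P was 0.0097 unadjusted and 0.689 adjusted, with 6.44% of all present probes under an unadjusted 0.05.

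NDUFB6 (A_72_P035591), another accessory subunit of the membrane arm, had 12.24, 12.29, 12.29 and 11.78 in m_9597, m_9599, m_9499 and m_9527, and 12.61, 12.51, 12.06 and 12.66 in m_9598, m_9600, m_9502 and m_9528. The supplemented boar m_9527 was the lowest of all and m_9502 the second lowest. The difference was -0.31 (standard error 0.19, limma, adjusted p = 0.840) with all boars and -0.12 without m_9527 and m_9528.

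NDUFV2, a core subunit that carries an iron-sulfur cluster in the arm that oxidises NADH, was read by a pair of probes with diet differences of -0.08 (A_72_P008021) and -0.22 (A_72_P036126). Both were lowest in boar m_9527. Without m_9527 and m_9528 the differences were 0.04 and 0.01. NDUFB8 (A_72_P014556), which lies in the membrane arm too, was the most even probe of the set, with an SD of 0.09 over the 8 boars, values from 15.85 to 16.08 and a diet difference of 0.02 (95% interval -0.27 to 0.31).

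In complex II, SDHD (A_72_P177861), the subunit that anchors the enzyme in the membrane, varied most between boars. It had 11.83, 11.54, 11.86 and 10.84 in m_9597, m_9599, m_9499 and m_9527 on the supplemented diet, and 12.13, 12.04, 10.97 and 12.30 in m_9598, m_9600, m_9502 and m_9528 on the control diet. Each diet thus held 1 boar far below its others, m_9527 and m_9502. The spread from lowest to highest boar was 2.75-fold. The diet difference of -0.34 (standard error 0.33, limma, adjusted p = 0.840) was 0.03 without m_9527 and m_9528, and -0.64 without m_9502. SDHB (A_72_P178116), the iron-sulfur subunit of the same complex, had a diet difference of -0.05, which was 0.11 without that pair, and a spread of 1.42-fold. It was lowest in m_9527 and highest in m_9528, as was SDHD.

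Complex III was read by 1 probe, for UQCR10 (A_72_P268504), a small accessory subunit. Its values lay between 15.06 and 15.42, with a diet difference of 0.01 (95% interval -0.30 to 0.32).

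In complex IV, 10 of the 11 present probes had a higher mean on the supplemented diet, with differences between -0.23 and 0.26. Without the COX8H probe, which is too close to background to count, these were 9 of 10. COX6B, on the intermembrane side of the enzyme, had differences of 0.26, 0.18 and 0.13 for A_72_P211467, A_72_P303339 and A_72_P260567. For A_72_P211467 the supplemented boars had 14.54 (m_9597), 14.72 (m_9599), 14.79 (m_9499) and 14.55 (m_9527), and the control boars 14.31 (m_9598), 14.46 (m_9600), 14.82 (m_9502) and 13.95 (m_9528). The lowest 3 of the 8 were control boars, but the highest was the control boar m_9502. A_72_P303339 had 11.37, 11.62, 11.61 and 11.29 against 11.30, 11.41, 11.53 and 10.93 in the same order, with m_9528 the lowest here too. The standard errors were 0.19 for A_72_P211467 and 0.17 for A_72_P303339, with an adjusted p of 0.840 from limma for both. Without the control boar m_9528 their differences were 0.12 and 0.06, and without both m_9527 and m_9528 they were 0.15 and 0.12.

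COX7A2 (A_72_P203272) was the exception in complex IV. It had 16.60, 16.74, 16.75 and 16.60 in m_9597, m_9599, m_9499 and m_9527, and 17.08, 16.67, 16.72 and 17.14 in m_9598, m_9600, m_9502 and m_9528. The control boars m_9598 and m_9528 lay above the rest, and the other control boars lay within the supplemented range. The difference was -0.23 (standard error 0.16, limma, adjusted p = 0.840), and -0.13 without m_9527 and m_9528.

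The membrane subunits COX6C and COX7C and the muscle form COX7A1 differed less between the diets. The COX6C probes gave 0.03 (A_72_P122981) and 0.08 (A_72_P177916), COX7C (A_72_P232697) gave 0.06 and COX7A1 gave 0.11. Without m_9527 and m_9528 these were -0.15, -0.07, -0.15 and -0.0094 in the same order, so all changed sign. COX7C was among the most variable probes, from 14.02 in m_9599 to 14.80 in m_9527. NDUFA4, first described in complex I and later found with complex IV, had differences of 0.04 (A_72_P041381) and 0.20 (A_72_P088776). The latter had 12.59, 12.63, 13.00 and 12.93 in m_9597, m_9599, m_9499 and m_9527, and 12.50, 12.65, 12.74 and 12.49 in m_9598, m_9600, m_9502 and m_9528. The boars m_9499 and m_9527 lay above all control boars, while m_9597 and m_9599 lay among them. Its difference was 0.11 without m_9527 and m_9528.

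In ATP synthase, 4 of the 5 probes had a higher mean on the supplemented diet. ATP5I, the e subunit of the membrane part, was read by a pair of probes that gave 0.26 (A_72_P077116) and 0.25 (A_72_P177636). For A_72_P177636 the supplemented boars had 16.43 (m_9597), 16.49 (m_9599), 16.42 (m_9499) and 16.60 (m_9527), and the control boars 16.21 (m_9598), 16.45 (m_9600), 16.55 (m_9502) and 15.72 (m_9528). The supplemented boars lay close together, and the control boar m_9528 lay far below all others. The probe A_72_P077116 had 16.31, 16.13, 16.31 and 16.42 against 15.88, 16.18, 16.41 and 15.65 in the same order, again with m_9528 the lowest. Without m_9527 and m_9528 the differences of the probes were 0.04 for A_72_P177636 and 0.09 for A_72_P077116. ATP5G1 (A_72_P177586), the c subunit of the rotating ring, gave 0.14, and ATP5J2 (A_72_P077611), the f subunit, gave 0.04. ATP5O (A_72_P178181), the stalk subunit that links the head to the membrane part, gave -0.19 and was lowest in m_9527 and highest in m_9528. Without these boars ATP5G1 gave 0.07, ATP5J2 0.03 and ATP5O 0.04.

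**Figure D2:**
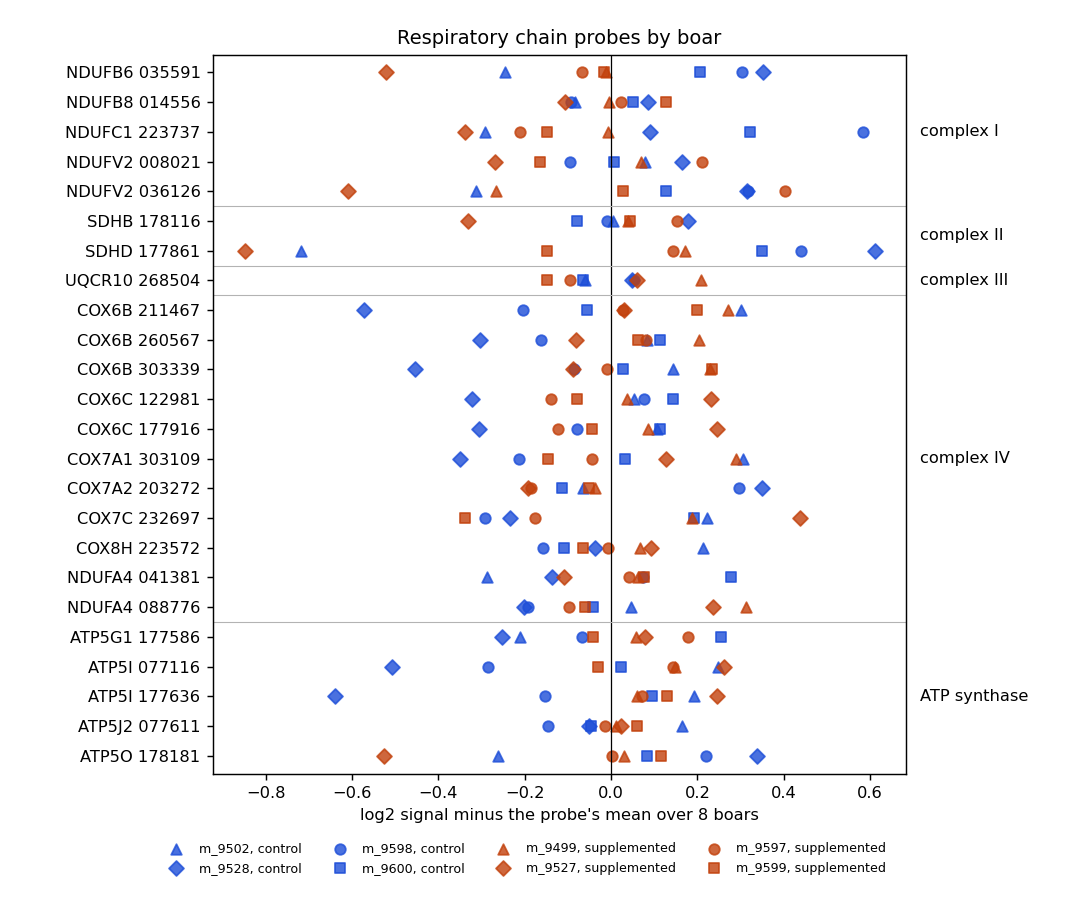
Log2 signal of each of the 24 present probes in each boar, as the deviation from the mean of that probe over the 8 boars (horizontal axis), labelled by gene and the last 6 digits of the probe and grouped by complex. Colours mark the diet and symbols the boar; the diamonds of m_9527 and m_9528 lie at opposite ends in SDHD, NDUFB6, ATP5O and ATP5I, and the diets overlap in each row.

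By complex the diet means leaned in different directions. For complexes I, II and IV the lean was weakened or reversed without m_9527 and m_9528. ATP synthase kept its direction without this pair, but was weakened too, with a median diet difference of 0.14 before and 0.04 after. This pair was chosen after seeing the data. With all boars, 4 of 5 probes of complex I and 2 of 2 of complex II had the lower mean on the supplemented diet, while 10 of 11 of complex IV and 4 of 5 of ATP synthase had the higher one. The counts were the same after normexp and after scaling each array by its 75th percentile, except that complex IV had 9 of 11 with the background-subtracted signal. Without m_9527 and m_9528, 2 of 5 probes of complex I and 0 of 2 of complex II had the lower mean, and 6 of 11 of complex IV and 5 of 5 of ATP synthase the higher one. With COX8H left out, complex IV had 9 of 10 with all boars, 5 of 10 without the pair and 5 of 10 without m_9528 alone. Without m_9502, 5 of 5 probes of complex I had the lower mean. Members of 1 complex are read in the same boars, so they are not replicates of each other.

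The 2 boars were set against each other directly, boar m_9528 (control) minus boar m_9527 (supplemented), with 1 animal each and hence no test. All 5 probes of complex I and both of complex II were higher in m_9528, by 0.19 (NDUFB8) to 1.46 (SDHD). In complex IV, 10 of 11 were lower in m_9528 and COX7A2 was higher, by 0.54. In ATP synthase, 4 of 5 were lower, ATP5I by -0.77 and -0.88, and ATP5O was higher, by 0.86. Over all members 9 were higher and 15 lower in m_9528, and 49.7% of all present probes were higher there. The sign changed under another scaling or background correction for 2 members, the COX8H probe A_72_P223572 and the NDUFA4 probe A_72_P041381. In 9 of the 24 present members the lowest value was in 1 of the 2 boars and the highest in the other, against 24.8% of all present probes.

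**Figure D3:**
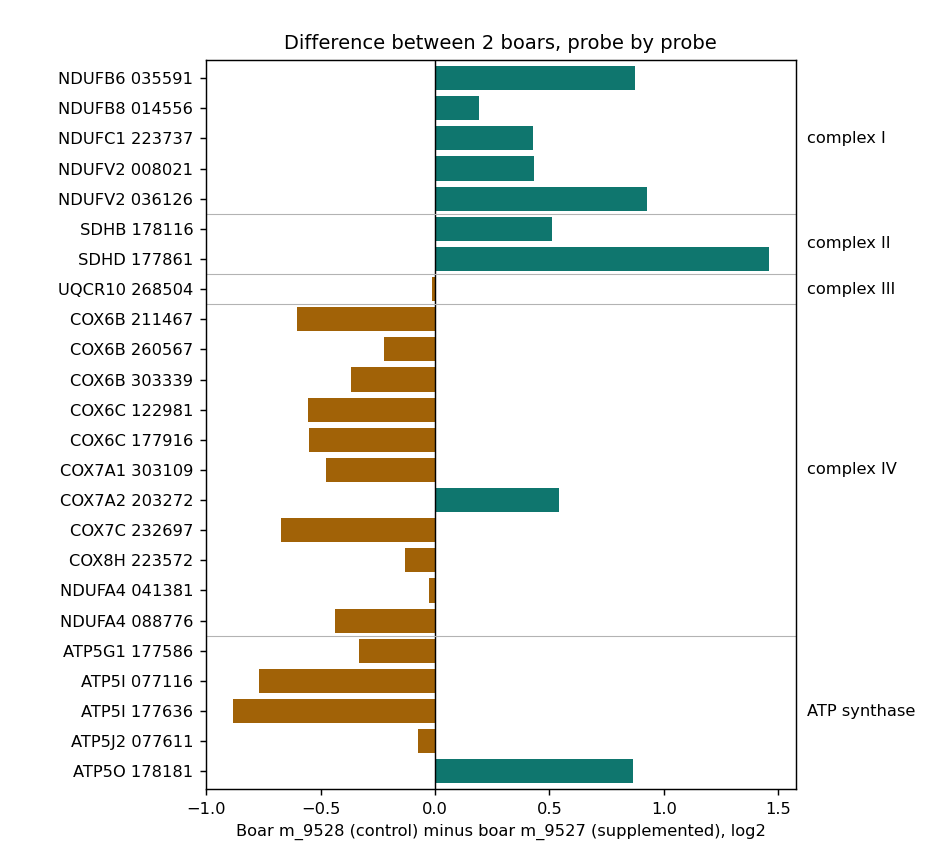
Difference between boar m_9528 (control diet) and boar m_9527 (supplemented diet) in log2 signal for each present respiratory chain probe, labelled by gene and the last 6 digits of the probe and grouped by complex. Bars to the right are probes higher in m_9528; all of complex I and II point right, while complex IV and ATP synthase point left except for COX7A2 and ATP5O.

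Other measures differed between the same 2 boars. Of the present marker probes, 13 of 14 for Leydig cells, 10 of 11 for spermatids, 2 of 2 for spermatocytes and 5 of 5 for duct epithelium were higher in m_9528. Of the macrophage markers 0 of 7 were higher there, of the peritubular ones 1 of 4, of the spermatogonial ones 1 of 3, of the endothelial ones 2 of 5 and of the Sertoli cell ones 5 of 13. Some counted probes were about as dim as the COX8H probe A_72_P223572, which had log2 signals of 5.26 to 5.63. Among them were CDH1 A_72_P164631 (4.98 to 5.46), CDH5 A_72_P310398 (5.03 to 5.57) and DES A_72_P350098 (5.08 to 5.80). So were KITLG A_72_P146791 (5.13 to 5.62), CYP19A1 A_72_P232317 (5.35 to 5.88) and HSD3B1 A_72_P197232 (5.49 to 5.95). List medians, relative to the mean of each probe over the boars, are given for all boars, and other boars also held the ends. Spermatids ran from -0.31 (m_9527) to 0.10 (m_9597) on the supplemented and from -0.09 (m_9502) to 0.23 (m_9528) on the control diet. The Leydig list ran from -0.92 (m_9527) to 1.09 (m_9499) and from -0.15 (m_9502) to 0.38 (m_9528). For macrophages the range was -0.04 (m_9599) to 0.47 (m_9527) against -0.55 (m_9528) to 0.61 (m_9600). For duct epithelium it was -1.84 (m_9597) to 0.86 (m_9599) against -0.76 (m_9502) to 1.44 (m_9598). In the latter list m_9527 had -0.27 and m_9528 had 0.69. The duct epithelium list had the widest median diet difference of the marker lists, -0.95, and -1.04 without m_9527 and m_9528, with 0 of its 5 probes under a limma P of 0.05. These probes are for 2 genes, and both medians are values of an EPCAM probe. The EPCAM probes had -0.95, -1.15 and -1.19, while the CDH1 probes had -0.18 and -0.15. Without the pair, EPCAM had -1.04, -1.08 and -1.17, and CDH1 had 0.17 and -0.10. The CDH1 values of -0.15 and -0.10 are from the dim probe A_72_P164631. Red blood cell markers had 0 named probes, and a CD14 probe (A_72_P088666) for macrophages and a THY1 probe (A_72_P172915) for spermatogonia were not present. The part of cell composition and array brightness in the respiratory chain values was not tested.

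The spread of the respiratory chain between boars was small beside that of the array. The SD over the 8 boars had a median of 0.20 over the members and 0.30 over all present probes. It was also 0.30 over the 3680 present probes whose signal lay between the quartiles of the members. Below that lay 21 of the 24 members, a count that includes members brighter or dimmer than this range. The most even probes were NDUFB8, ATP5J2 (SD 0.09), UQCR10 (0.11) and the dim COX8H probe A_72_P223572 (0.12). The most variable were SDHD (0.53), the NDUFV2 probe A_72_P036126 (0.36), NDUFC1 (0.32) and COX7C (0.29).

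Error between spots could be read for 1 member. The ATP5I probe A_72_P177636 was printed in 5 spots on each array, while the 24 other members had 1 spot. The SD between its 5 spots was 0.08 in m_9528 and 0.26 in m_9502, with a mean of 0.19 over the arrays. Between the boars the SD was 0.28. The former is for single spots and the latter for the average of 5 spots, which has a smaller spot error, so they are not like measures. In m_9528 the 5 spots read 15.63 to 15.83, and the spots of the 7 other arrays all read above this, from 15.96 up. The low ATP5I value of m_9528 was thus shared by all 5 spots, and its cause was not tested. Over the 46 present probes with several spots, the median SD was 0.15 between single spots and 0.28 between boars, the latter again for averaged spots.

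**Figure D4:**
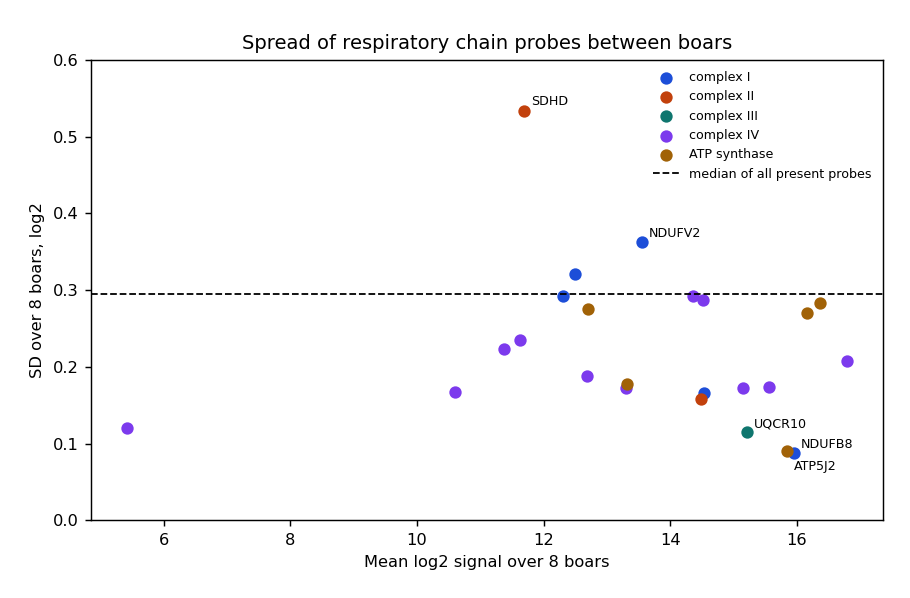
SD over the 8 boars against the mean log2 signal for each of the 24 present respiratory chain probes, coloured by complex. The dashed line is the median SD of all present probes, 0.30; 3 members, SDHD, NDUFV2 and NDUFC1, lie above it.

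Probes of the same gene gave the same sign for the diet with all boars. Within the brothers alone, signs differed for NDUFV2 (A_72_P008021 0.07, A_72_P036126 -0.0068) and NDUFA4 (A_72_P041381 -0.12, A_72_P088776 0.04). Of the 18 genes, 5 had several present probes (ATP5I, COX6B, COX6C, NDUFA4 and NDUFV2), and in 0 of them did the signs differ with all boars. The paired probes were not alike in spread. The NDUFV2 probe A_72_P036126 had an SD of 0.36 over the boars and the other one 0.17.

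The litter of 4 brothers was compared with the other 4 boars by limma with the diet in the fit, a comparison that is also that of the slides. With limma, 0 of 24 members had a P-value under 0.05 and 0 an adjusted one, where 8.11% and 0% of all present probes did, and 13 members were higher and 11 lower in the brothers by their means. The largest difference of a member was that of the NDUFV2 probe A_72_P036126, with a mean of 13.77 in the brothers and 13.33 in the others. It was 0.44 (standard error 0.20, limma, adjusted p = 0.622). Next by P-value came the NDUFA4 probe A_72_P041381 with 0.24, COX7C with -0.31, NDUFC1 with 0.27 and the NDUFA4 probe A_72_P088776 with -0.20. Without boar m_9528, 3 members were under an unadjusted limma P of 0.05 (NDUFV2, COX7A1 and COX7C), as were 25.7% of all present probes. Without m_9600 COX7C was, as were 5.92% of all present probes.

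The diet difference itself was also compared between the litter of brothers and the other boars, as an interaction in limma. Of the members 0 had an interaction P under 0.05 and 0 an adjusted one, against 2% and 0% of all present probes. The diet difference had the same sign in the brothers and in the other boars in 12 of the 24 members, which is 50%, and in 61.1% of all present probes. Of the 10 complex IV probes other than COX8H, 9 were higher on the supplemented diet in the other boars and 4 in the brothers.

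Genes around the chain were read from lists. Of the regulators of mitochondrial biogenesis, 5 genes had a present probe, and 0 of these passed a limma P of 0.05. Their median diet difference was -0.38 with all boars and 0.03 without m_9527 and m_9528. TFAM (A_72_P305714), which packages and transcribes mitochondrial DNA, had a diet difference of -0.38, with the lowest value, 10.11, in m_9527 and the highest, 11.76, in m_9528, and a difference of 0.03 without this pair. GABPB1 (A_72_P005061), a partner of the ETS factor GABPA, had -0.53, was again lowest in m_9527 and highest in m_9528, and had -0.05 without them. The deacetylases SIRT1 (A_72_P042971) and SIRT3 (A_72_P146686) had -0.69 and -0.25, and -0.19 and 0.04 without the pair. PPARGC1A (A_72_P077836), a coactivator of mitochondrial genes, ran the other way, with 0.48, the highest value, 9.01, in m_9527 and the lowest, 7.62, in m_9528, and had 0.17 without them.

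Of 21 present probes for 12 genes of the citric acid cycle and pyruvate dehydrogenase, 0 passed a limma P of 0.05, and their median diet difference was -0.17, from -0.52 to 0.07, and -0.06 without m_9527 and m_9528. In 17 of the 21 the signal was higher in m_9528 than in m_9527. The 9 probes for 7 genes of carriers, porins and uncoupling proteins had a median of -0.20 and 0 under that P, and a median of -0.01 without the pair. They ran from -0.64 for a probe of VDAC2 (A_72_P431284), a porin of the outer membrane, to 0.46 for UCP3 (A_72_P146406), of the uncoupling protein family, and these were 0.0079 and 0.01 without the pair. Of the assembly and supply list, only HIGD2A (A_72_P177726, -0.11) and PET100 (A_72_P165781, 0.12) had a named probe. None of the 13 genes of mitochondrial DNA had a named probe, and they were not analysed here.

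GPD2 (A_72_P317098), the glycerol-3-phosphate dehydrogenase of mitochondria, which feeds electrons to the chain beside complexes I and II, was the only one of the 38 present probes of these pathway lists under a limma P of 0.05, which is 2.63%, close to the 1.86% of all present probes. It is in the study's own list of differing probes, which was drawn from these arrays, so its P is not independent evidence. It had 8.81, 8.72, 8.70 and 8.05 in m_9597, m_9599, m_9499 and m_9527, and 9.27, 9.13, 8.80 and 9.41 in m_9598, m_9600, m_9502 and m_9528. The 3 highest values were from control boars, and m_9502 (8.80) lay just under m_9597 (8.81), so the diets overlapped. The difference was -0.58 (standard error 0.21, limma, adjusted p = 0.840) and -0.33 without m_9527 and m_9528.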

How the data were processed

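Testis RNA was labelled with Cy3 and hybridized to 1 porcine Agilent array per boar. The authors deposited each array's spot intensity as read by the scanner software, before any normalization. A second deposited file gives log2 values, and its scale, centring and boar order match the log2 values computed here (largest gap 0.056, column medians 8.18). It was used as an alternative.

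Control spots were left out, and log2 of gMedianSignal, the raw value named in the methods, was quantile-normalized with no background subtracted, which understates differences of dim probes. Spots of a probe were averaged. A probe counted as present in a boar when 50% or more of its spots exceeded a signal of 25 and carried the flag gIsWellAboveBG, and it was kept when this held for 2 of 4 boars of a diet (36982 probes). Diets were compared two-sided and without a block in limma 3.58.1 (R 4.3.3). P-values were adjusted by Benjamini-Hochberg across the probes kept. The code was tested on simulated data.

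Of 3239 probes with a RefSeq accession, 2628 matched the RefSeq table (Sscrofa11.1, names only). The members and the lists were chosen with earlier results of these data known. Full values were given for the 8 members with the smallest P, and values for the 4 with the largest and 4 with the smallest SD, tissue forms, absent members and the 5 smallest litter P-values. The number of arrays limits the precision. P-values for the diets set a difference against the spread between boars of a diet, which also holds array and spot error. Without a block, the brothers were treated as independent boars. Alternatives were other signals, scalings, filters, tests, blocks and boars left out. Figures were drawn with matplotlib 3.10.9.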

Additional observations from a re-analysis of the deposited data

Results flagged for a closer look

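Dixon's test at 95% marked a boar as far from its diet in 2 of 58 groups of 4 boars, where chance alone gives about 2.9. The NDUFB6 probe A_72_P035591 was low in boar m_9527, at 11.78, while the remaining supplemented boars had 12.24 to 12.29. The median deviation of the 5 complex I probes, of which NDUFB6 is 1, was low in the same boar, at -0.34, with -0.02 to 0.02 in the rest of the diet.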

How the results depend on the processing

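The number of members with an adjusted P under 0.05 was 0 under each of the 22 alternatives. The number with an unadjusted P under 0.05, 0 with all boars, was 5 with array weights (ATP5I, COX6B, NDUFB6, NDUFC1 and COX7A2), where 15.8% of all present probes were, and 1 in the litter of 4 brothers alone (NDUFC1), where 6.44% were. It lay between 0 and 5 when single boars were left out, the latter without m_9502 (16.6% of all present probes). The number for the litter or slide, also 0, was 1 on background-subtracted signals (COX8H, with 8.31% of all present probes), and lay between 0 and 3 when single boars were left out, the latter without m_9528 (25.7%). The median diet difference of the members ran from -0.0061 to 0.16 and the median SD within diets from 0.12 to 0.23, against 0.04 and 0.19. The slide as a block changed no call.

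Of the 15 members followed through the alternatives, 8 kept the sign of their diet difference under each of them, while 7 changed it in 21 of 329 values. UQCR10 had -0.0814 with array weights and -0.12 in the brothers alone, and COX7C had -0.21 in the latter. In the other 4 boars alone NDUFB8 had -0.056, ATP5J2 -0.0393 and the COX8H probe -0.0076, and COX8H had -0.0733 on background-subtracted signals (gProcessedSignal, scaled by the 75th percentile). Without the 2 boars m_9527 and m_9528, an alternative chosen after seeing the data, as were those for the litter and the counts without COX8H, SDHD had 0.0318, the NDUFV2 probe A_72_P036126 0.0105 and COX7C -0.15. With each boar left out in turn, UQCR10 ran from -0.0558 to 0.0633, COX7C from -0.0816 to 0.18, NDUFB8 from -0.0189 to 0.0589 and ATP5J2 from -0.0019 to 0.10. The cause of these changes was not tested. Normexp was run on gMedianSignal, and the promoter motifs planned were not analysed here.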
